A study of Mus musculus with 16 samples.

Results

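The signals of 42 genes of DNA replication and mitosis, picked by gene symbol, were examined in sorted cells of the mouse olfactory mucosa. Of these, 40 had a probe set under their symbol, 1 each, among 19505 named genes on the array. They fall into 15 replication genes and 25 mitosis genes. The replication genes are 8 of the Mcm, Rrm and Pcna kind, set apart here as the core, and 7 others of S phase. Mcm7 and Ccnb1 were not analysed here.

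The cells came from S100a5-tauGFP mice on C57BL/6, a reporter line in which GFP marks cells through S100a5, a gene of olfactory sensory neurons. All 24 mice, of both sexes and 7 to 12 weeks old, spent 40 hours in clean-air chambers at 3.1 L per minute. From hour 26, a pulse of 10 seconds came every 20 minutes, of banana-scented isoamyl acetate (odor) or filtered air (vehicle). Mucosa of 3 mice was pooled, dissociated and sorted by fluorescence, and each of 8 pools gave a library titled GFP+ and one titled GFP-. The 4 groups of 4 libraries are odor titled GFP+, odor titled GFP-, vehicle titled GFP+ and vehicle titled GFP-. Which pools were of which sex is not stated. Signals are log2 values from Clariom S mouse arrays, whose precision the number of arrays and, for dim genes, the background limit.

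The sign of the sort is in doubt. For all 16, the labels' cell type field says GFP+ where the title says GFP- and the reverse. S100a5 itself had log2 signals of 15.46, 15.94, 15.23 and 15.35 in odor libraries titled GFP+, against 16.83, 16.95, 16.62 and 16.58 in odor titled GFP-, and of 15.66, 15.55, 14.69 and 14.95 in vehicle titled GFP+, against 16.51, 16.59, 16.14 and 16.33 in vehicle titled GFP-. It was thus lower in every library titled GFP+ than in any titled GFP- of the same treatment. Libraries are called by their titles throughout, and each direction between sorts is reversed if the titles are the wrong ones. Whichever label holds, within a treatment the libraries titled GFP+ are those with the lower S100a5 signal. Omp, which marks mature olfactory neurons, read between 17.99 and 18.59 in all 16 libraries. The 12 mature neuron markers together reached a log2 summed signal of 20.52 to 20.92 in odor titled GFP+ and 20.93 to 21.06 in odor titled GFP-. In vehicle the sums were 20.71 to 20.90 in titled GFP+ and 20.96 to 21.07 in titled GFP-.

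A cell that commits to division first loads the Mcm helicase on its origins, with the help of Cdc6 and Cdt1, and then copies its DNA behind sliding clamps of Pcna while ribonucleotide reductase, made of Rrm1 and Rrm2, supplies the building blocks. It then condenses its chromosomes, attaches them to a spindle through kinetochores, waits on a checkpoint, and separates them once the anaphase-promoting complex marks cyclin B for destruction. Many S phase genes are driven by E2F factors, while many mitosis genes are switched on later through a CHR element and CCAAT boxes, the sites of the DREAM and MuvB complexes and of NF-Y. In the olfactory epithelium, globose basal cells keep dividing in the adult and replace sensory neurons, which do not divide. Precursors of granulocytes, lymphocytes and red cells divide as well.

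Promoters of 6 genes are printed to show these words where they lie most densely among the genes. Windows of 300 bases, 250 before and 50 after the start, came from RefSeq on GRCm38.p6 for 33 of the 40 measured genes, 12 of replication and 21 of mitosis. Exact matches on either strand were sought to the E2F-type words TTTCCCGC, TTTGGCGC, TTTGCCGC and TTTCGCGC, to the CHR words TTTGAA and TTCGAA, and to CCAAT. The E2F-type words can overlap each other, and a CHR can overlap a CCAAT box. The 3 replication genes with the most E2F-type matches were Mcm6 (chr1:128359656-128359955 on the minus strand), Mcm3 (chr1:20820263-20820562 on the minus strand) and Mcm5 (chr8:75109259-75109558 on the plus strand). Their windows follow 5′ to 3′ with the E2F-type matches in capitals, merged where they overlap.
Mcm6: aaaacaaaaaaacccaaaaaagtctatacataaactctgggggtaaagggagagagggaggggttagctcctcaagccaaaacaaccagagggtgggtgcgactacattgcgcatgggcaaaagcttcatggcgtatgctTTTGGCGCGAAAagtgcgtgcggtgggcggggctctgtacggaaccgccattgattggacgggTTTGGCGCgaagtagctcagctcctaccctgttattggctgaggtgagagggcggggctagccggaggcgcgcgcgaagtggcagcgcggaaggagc
Mcm3: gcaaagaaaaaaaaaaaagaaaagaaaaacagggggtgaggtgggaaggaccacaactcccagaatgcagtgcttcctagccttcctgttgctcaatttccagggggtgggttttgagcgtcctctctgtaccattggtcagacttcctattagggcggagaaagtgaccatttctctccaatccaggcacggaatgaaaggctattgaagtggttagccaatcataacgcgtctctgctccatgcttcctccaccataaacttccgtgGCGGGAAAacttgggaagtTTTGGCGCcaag
Mcm5: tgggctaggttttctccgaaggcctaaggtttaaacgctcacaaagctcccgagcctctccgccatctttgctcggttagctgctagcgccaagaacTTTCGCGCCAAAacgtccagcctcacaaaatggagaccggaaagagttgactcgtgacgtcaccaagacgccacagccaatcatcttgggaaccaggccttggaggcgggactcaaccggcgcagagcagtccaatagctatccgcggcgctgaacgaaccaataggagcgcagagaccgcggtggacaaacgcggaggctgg
Mcm6 held 3 matches, at bases -110, -106 and -47 from the start, Mcm3 held 2 and Mcm5 held 2.

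The 3 mitosis genes with a CHR and the most CCAAT boxes were Top2a (chr11:99024140-99024439 on the minus strand), Ube2c (chr2:164769679-164769978 on the plus strand) and Cdca8 (chr4:124936868-124937167 on the minus strand). Here the capitals mark CHR words and CCAAT boxes on either strand, where ATTGG is CCAAT read from the other strand.
Top2a: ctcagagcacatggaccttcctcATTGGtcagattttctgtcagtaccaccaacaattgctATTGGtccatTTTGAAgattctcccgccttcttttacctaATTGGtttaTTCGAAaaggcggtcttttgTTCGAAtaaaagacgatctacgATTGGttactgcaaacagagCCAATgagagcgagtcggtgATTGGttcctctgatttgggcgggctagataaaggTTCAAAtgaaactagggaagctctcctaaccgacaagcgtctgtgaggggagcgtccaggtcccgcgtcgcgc
Ube2c: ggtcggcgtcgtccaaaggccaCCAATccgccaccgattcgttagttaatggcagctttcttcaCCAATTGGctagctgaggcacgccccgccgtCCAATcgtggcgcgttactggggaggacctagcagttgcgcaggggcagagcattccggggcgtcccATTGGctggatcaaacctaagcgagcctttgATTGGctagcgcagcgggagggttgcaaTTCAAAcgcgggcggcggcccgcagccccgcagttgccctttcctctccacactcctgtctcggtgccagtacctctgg
Cdca8: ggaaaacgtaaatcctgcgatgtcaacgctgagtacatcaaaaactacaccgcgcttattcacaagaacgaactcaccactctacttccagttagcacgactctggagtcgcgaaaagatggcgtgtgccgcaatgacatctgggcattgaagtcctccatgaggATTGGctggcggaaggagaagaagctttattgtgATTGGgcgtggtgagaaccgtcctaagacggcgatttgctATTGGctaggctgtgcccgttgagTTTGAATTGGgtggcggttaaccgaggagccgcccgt
Top2a held 4 CHR words and 6 CCAAT boxes, Ube2c held 1 and 6, and Cdca8 held 1 and 4. Over all windows of the genes, an E2F-type word was found in 5 of 12 replication genes (41.7%), in 1 of 21 mitosis genes (4.76%) and in 2.6% of the 27025 genes of the table. A CHR together with a CCAAT box was found in 1 of 12 replication genes (8.33%), in 16 of 21 mitosis genes (76.2%) and in 8.61% of the table. CHR words alone were in 81.0% of the mitosis genes and 21.7% of the table, and CCAAT boxes in 81.0% and 41.1%. These are matches of letters, and a window without one says nothing of the factor.

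Many of these genes were dim, so each reading was set beside the array's background, the median of its 5222 negative control probe sets, which ran from 5.15 to 5.67. It was 5.15 to 5.56 in libraries titled GFP+ and 5.30 to 5.67 in those titled GFP-. Of the 40 genes, 12 lay above it in all 16 libraries, 30 in all 8 libraries titled GFP+, and 15 were below it in all 8 titled GFP-. Tk1, Gins2, Cdk1 and Cdc20 were above it in 0 of 16. Where a gene was below background in every library titled GFP- of a treatment, its fold is given as a lower bound, with values raised to the background. The adjusted p beside such a bound is that of the values as deposited, unless it is said to be of raised values. No fold is given where both sorts were below it. In bulk libraries, fewer cells of a type and less RNA per cell cannot be told apart.

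Libraries titled GFP+ held more RNA of most of these genes, whichever air the mice breathed. Of the 40, 33 were called higher and 0 lower in odor, where 11.0% of all 22206 tested probe sets were called higher and 9.86% lower. In vehicle 34 were called higher and 0 lower, against 10.2% higher and 7.16% lower of all probe sets. The scaling of the arrays moves these shares of all probe sets. Median centring called 1875 higher and 13679 lower in odor and 1762 higher and 13868 lower in vehicle, against 2449 higher and 2189 lower in odor and 2260 higher and 1591 lower in vehicle as deposited. Quantile normalization called 2334 higher and 3300 lower in odor and 2148 higher and 2954 lower in vehicle. Centring on mature neuron markers called 3896 higher and 590 lower in odor and 2842 higher and 596 lower in vehicle. A call is an adjusted p under 0.05 from limma with Benjamini-Hochberg adjustment over all tested probe sets, and differences are log2, titled GFP+ minus titled GFP-. Groups did not overlap for 31 genes in odor, higher in titled GFP+ (10.5% of all probe sets), and for 33 in vehicle (11.3%). The median gene differed by 1.55 in odor and 1.82 in vehicle, beside medians over all probe sets of -0.14 in odor and -0.13 in vehicle. With values raised to the background the medians were 0.83 in odor and 0.96 in vehicle, and 23 genes were called in odor (8.54% of all probe sets higher) and 27 in vehicle (7.77%). In the pools, 33 of the 40 genes were higher in titled GFP+ in all 8, as were 11.9% of all probe sets. The genes called in neither treatment were Mcm4, Tyms, Tk1, Gins2 and Prc1. Ccne2 and Aurka were called in vehicle and not in odor, and Bub1b in odor and not in vehicle. Their difference between treatments was not called for any of the 3.

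**Figure D1:**
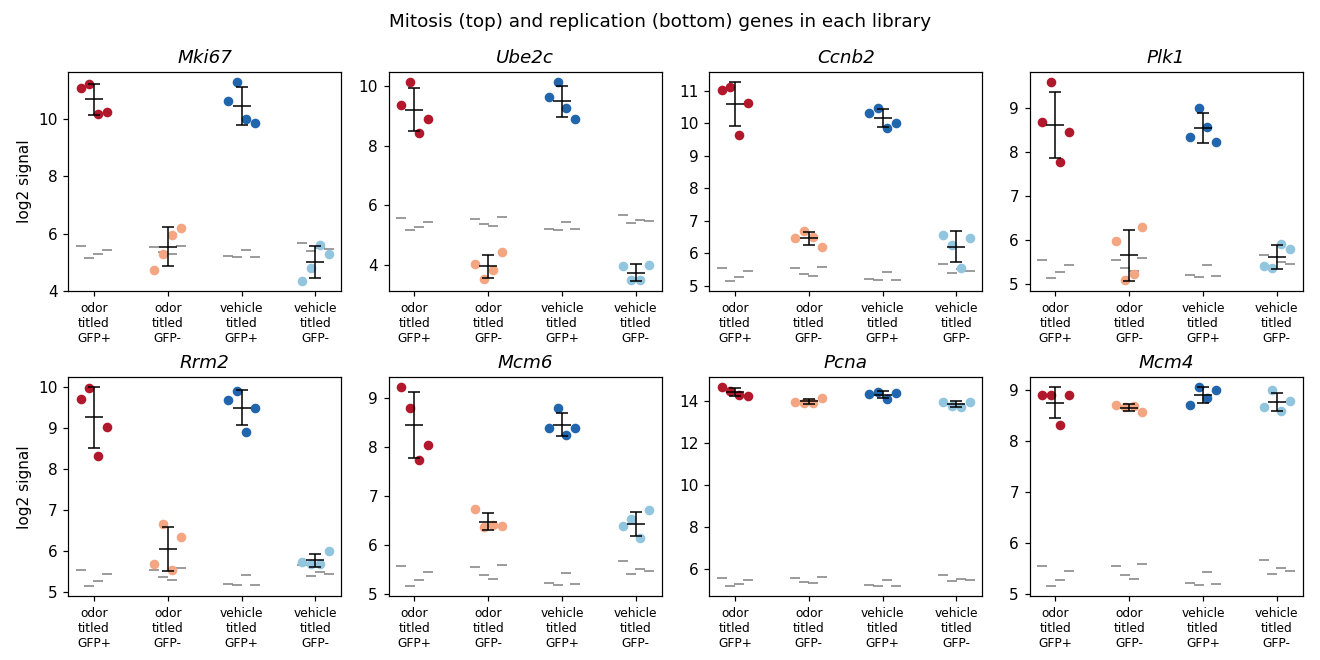
Log2 signal of 4 mitosis genes (top row) and 4 replication genes (bottom row) in each library, by treatment and titled sort. Points are libraries, black bars are mean ± SD (n = 4), and short grey lines are each array's median negative control. Ube2c stands below that line in all 8 libraries titled GFP-, while Pcna and Mcm4 stand far above it in all 16.

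Origin licensing and the fork gave 7 of 9 genes called higher in each treatment. Pcna, the sliding clamp that holds polymerases on DNA, had log2 signals of 14.68, 14.49, 14.30 and 14.27 in odor libraries titled GFP+, against 13.95, 13.94, 13.90 and 14.18 in odor titled GFP-. It had 14.33, 14.44, 14.11 and 14.39 in vehicle titled GFP+, against 13.98, 13.78, 13.72 and 13.99 in vehicle titled GFP-. The sorts did not overlap, yet the gap was small, at 0.45 (SE 0.13, adjusted p = 0.02) in odor and 0.45 (SE 0.13, adjusted p = 0.0202) in vehicle. The odor call of Pcna was lost without titled GFP+ replicate 1 (0.36) or titled GFP- replicate 3 (0.42). The vehicle call was lost without titled GFP+ replicate 2 (0.41) or 4 (0.43), or titled GFP- replicate 2 (0.42) or 3 (0.40). Both were lost after each array was centred on its median, which left 0.08 in each treatment (adjusted p = 0.557 in odor and 0.54 in vehicle).

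Mcm4, a subunit of the Mcm helicase, had log2 signals of 8.91, 8.91, 8.30 and 8.89 in odor libraries titled GFP+, against 8.71, 8.66, 8.68 and 8.56 in odor titled GFP-. In vehicle they were 8.71, 9.05, 8.85 and 8.998 in titled GFP+, against 8.67, 9.004, 8.59 and 8.79 in titled GFP-. The sorts overlapped in both treatments, with differences of 0.10 (SE 0.15, adjusted p = 0.664) in odor and 0.14 (SE 0.15, adjusted p = 0.56) in vehicle. Median centring turned its sign, to -0.26 in odor and -0.23 in vehicle, neither of them called. Mcm6, of the same helicase ring, behaved otherwise, with 9.22, 8.79, 7.74 and 8.03 in odor libraries titled GFP+, against 6.72, 6.36, 6.40 and 6.39 in odor titled GFP-. Vehicle signals of Mcm6 were 8.39, 8.79, 8.24 and 8.39 in titled GFP+, against 6.37, 6.52, 6.13 and 6.70 in titled GFP-. Its lowest library titled GFP+ stood above its highest titled GFP-, and the difference was 1.98 (SE 0.25, adjusted p = 1.33e-05) in odor and 2.02 (SE 0.25, adjusted p = 1.12e-05) in vehicle, or 3.94-fold in odor and 4.07-fold in vehicle.

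Among the other helicase subunits, Mcm2 averaged 6.83 ± 0.47 in odor titled GFP+ and 5.22 ± 0.21 in odor titled GFP- (SD, n = 4 each), with 7.23 ± 0.37 and 5.19 ± 0.24 in vehicle titled GFP+ and titled GFP-. Its difference was 1.60 (SE 0.22, adjusted p = 3.72e-05) in odor and 2.04 (SE 0.22, adjusted p = 2.67e-06) in vehicle. Only 1 of 4 libraries titled GFP- in each treatment was above background for Mcm2, and values raised to it differed by 1.36 in odor and 1.71 in vehicle. Mcm5 averaged 7.11 ± 0.49 in odor titled GFP+ and 5.25 ± 0.15 in odor titled GFP-, where all 4 libraries were below background, a rise of at least 3.15-fold (adjusted p = 5.12e-06). For Mcm5 the vehicle means were 7.16 ± 0.23 (titled GFP+) and 5.30 ± 0.33 (titled GFP-), which differed by 1.85 (SE 0.22, adjusted p = 5.67e-06). Mcm3 was above background in all 8 libraries titled GFP+ and in 0 of 8 titled GFP-. It was higher by at least 1.19-fold in odor (adjusted p = 1.47e-05) and 1.78-fold in vehicle (adjusted p = 1.13e-07). Raised to the background, the odor difference of Mcm3 was no longer called (adjusted p = 0.363). As deposited, 4 of the 5 measured subunits were called higher in both treatments, and Mcm4 did not pass the test.

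Of the loading factors, Cdt1, which brings the helicase to origins, differed by 1.36 (SE 0.22, adjusted p = 0.000214) in odor and 1.28 (SE 0.22, adjusted p = 0.000433) in vehicle. Its means were 8.003 ± 0.29 in odor titled GFP+ and 6.65 ± 0.41 in odor titled GFP-, and 8.17 ± 0.36 in the vehicle libraries titled GFP+ and 6.89 ± 0.29 in those titled GFP-. Cdc6, its partner, was called in both treatments (adjusted p = 0.00318 in odor and 0.000299 in vehicle), but it was above background in only 2 of 4 odor and 4 of 4 vehicle libraries titled GFP+ and in 0 of 8 titled GFP-. With values raised to the background it was not called in either treatment. Gins2, of the complex that activates the helicase, read 4.43, 3.98, 3.94 and 4.21 in odor titled GFP+, against 4.63, 4.56, 4.48 and 4.18 in odor titled GFP-. It read 4.87, 4.38, 4.40 and 4.73 in vehicle titled GFP+, against 3.72, 4.04, 4.03 and 4.68 in vehicle titled GFP-. All 16 readings were below background, and the sorts overlapped. It was not called as deposited (adjusted p = 0.254 in odor and 0.101 in vehicle), while median centring called it lower in odor and centring on mature neuron markers called it higher in vehicle (adjusted p = 0.00562 for the first and 0.0489 for the second). Without titled GFP- replicate 4 it was called higher in vehicle (0.67, adjusted p = 0.0131).

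Nucleotide supply split between its genes. Rrm2, the small subunit of ribonucleotide reductase, which cells make mainly in S phase, had log2 signals of 9.71, 9.99, 8.33 and 9.04 in odor libraries titled GFP+, against 5.68, 6.67, 5.55 and 6.36 in odor titled GFP-. In vehicle it had 9.68, 9.92, 8.92 and 9.49 in titled GFP+, against 5.73, 5.70, 5.69 and 6.02 in titled GFP-. Every library titled GFP+ was far above every library titled GFP-, by 3.20 (SE 0.32, adjusted p = 8.45e-07) in odor and 3.72 (SE 0.32, adjusted p = 1.51e-07) in vehicle, or 9.21-fold in odor and 13.2-fold in vehicle. Rrm1, the large subunit, was far above background in both sorts, at 10.86, 11.11, 10.65 and 10.44 in odor libraries titled GFP+, against 10.52, 10.26, 10.01 and 10.11 in odor titled GFP-. It was 11.22, 11.19, 10.82 and 10.93 in vehicle titled GFP+, against 10.32, 10.24, 10.18 and 10.01 in vehicle titled GFP-. The sorts overlapped in odor and not in vehicle, and the difference was 0.54 (SE 0.16, adjusted p = 0.0219) in odor and 0.85 (SE 0.16, adjusted p = 0.000756) in vehicle. The odor call of Rrm1 was lost under median centring (0.18, adjusted p = 0.304). It was also lost without titled GFP+ replicate 1 (0.51) or 2 (0.43), or titled GFP- replicate 3 (0.47) or 4 (0.50).

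Tyms, which makes thymidylate, had log2 signals of 7.61, 7.97, 7.46 and 7.32 in odor libraries titled GFP+, against 7.16, 7.35, 7.28 and 6.66 in odor titled GFP-. It had 7.62, 7.65, 7.95 and 7.65 in vehicle titled GFP+, against 6.80, 7.14, 7.42 and 7.79 in vehicle titled GFP-. The sorts overlapped in both treatments, and Tyms was not called, at 0.48 (SE 0.21, adjusted p = 0.113) in odor and 0.43 (SE 0.21, adjusted p = 0.168) in vehicle. With the pool as a block it passed in odor (adjusted p = 0.0469), as it did with centring on mature neuron markers (adjusted p = 0.0138). Tk1, which salvages thymidine, was below background in all 16 libraries, at 4.27, 4.77, 4.58 and 4.98 in odor libraries titled GFP+, against 4.39, 4.43, 4.69 and 5.13 in odor titled GFP-. It read 4.38, 4.77, 4.36 and 4.46 in vehicle titled GFP+, against 4.85, 4.62, 4.58 and 4.59 in vehicle titled GFP-. The sorts overlapped in both, and it was not called as deposited (adjusted p = 0.977 in odor and 0.564 in vehicle). Median centring called it lower in vehicle (-0.54, adjusted p = 0.0137), while centring on mature neuron markers turned its sign (0.30 in odor and 0.04 in vehicle, neither called). In odor its sign also turned without titled GFP+ replicate 1 (0.12) or 3 (0.01), or titled GFP- replicate 3 (0.00) or 4 (0.15).

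The E cyclins drive the entry into S phase with Cdk2. Ccne1 had log2 signals of 7.30, 6.62, 6.30 and 6.56 in odor libraries titled GFP+, against 5.64, 6.04, 5.39 and 5.87 in odor titled GFP-. Its vehicle signals were 6.99, 6.56, 6.58 and 6.61 in titled GFP+, against 5.75, 5.55, 5.52 and 5.65 in titled GFP-. The sorts did not overlap, and the difference was 0.96 (SE 0.19, adjusted p = 0.00139) in odor and 1.07 (SE 0.19, adjusted p = 0.000552) in vehicle. Ccne2 had 6.30, 6.58, 5.41 and 5.81 in odor libraries titled GFP+, against 6.10, 5.71, 6.13 and 5.48 in odor titled GFP-, where the sorts overlapped. It had 6.41, 6.22, 6.05 and 6.26 in vehicle titled GFP+, against 4.95, 5.44, 5.67 and 5.51 in vehicle titled GFP-, where they did not. It differed by 0.17 (SE 0.23, adjusted p = 0.641) in odor and 0.84 (SE 0.23, adjusted p = 0.0158) in vehicle. The vehicle call was lost without titled GFP- replicate 1, the lowest library (0.70, adjusted p = 0.0609), under median centring (0.47, adjusted p = 0.0628) and after quantile normalization (0.58, adjusted p = 0.0858). The odor value turned its sign under both (-0.20 and -0.15) and without titled GFP+ replicate 2 (-0.02). The difference between the treatments was -0.68 (SE 0.33, adjusted p = 1.0), not called.

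Among the kinases and cyclins of mitotic entry, 4 of 5 genes were called higher in odor and 5 of 5 in vehicle. Ccnb2, a B-type cyclin that activates Cdk1, had log2 signals of 11.04, 11.11, 9.64 and 10.63 in odor libraries titled GFP+, against 6.46, 6.70, 6.49 and 6.18 in odor titled GFP-. In vehicle it had 10.34, 10.46, 9.86 and 10.01 in titled GFP+, against 6.57, 6.26, 5.54 and 6.48 in titled GFP-. All 16 were above background and the sorts lay far apart, by 4.14 (SE 0.28, adjusted p = 8.16e-09) in odor and 3.95 (SE 0.28, adjusted p = 1.62e-08) in vehicle, or 17.7-fold in odor and 15.5-fold in vehicle. Plk1, a kinase of mitotic entry and of the spindle, had 8.67, 9.59, 7.78 and 8.45 in odor libraries titled GFP+, against 5.99, 5.10, 5.23 and 6.31 in odor titled GFP-. Its vehicle signals were 8.33, 9.01, 8.57 and 8.24 in titled GFP+, against 5.41, 5.36, 5.91 and 5.80 in titled GFP-. It did not overlap either, at 2.97 (SE 0.33, adjusted p = 2.7e-06) in odor and 2.92 (SE 0.33, adjusted p = 3.47e-06) in vehicle, and 4 of its 8 readings in titled GFP- were at or below background.

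Ccna2, the cyclin that serves S phase and early mitosis, had log2 signals of 8.45, 8.60, 7.91 and 8.01 in odor libraries titled GFP+, against 5.63, 5.48, 5.71 and 4.93 in odor titled GFP-. It had 8.37, 8.60, 8.09 and 7.75 in vehicle titled GFP+, against 5.89, 5.21, 5.72 and 5.34 in vehicle titled GFP-. The sorts did not overlap, with differences of 2.80 (SE 0.23, adjusted p = 6.43e-08) in odor and 2.66 (SE 0.23, adjusted p = 1.25e-07) in vehicle. Aurka, a kinase of centrosomes and spindle poles, had 6.38, 6.89, 6.92 and 6.14 in odor libraries titled GFP+, against 6.01, 5.95, 5.98 and 6.52 in odor titled GFP-. It had 6.61, 6.87, 6.48 and 6.79 in vehicle titled GFP+, against 6.20, 6.03, 6.18 and 5.92 in vehicle titled GFP-. The sorts overlapped in odor through titled GFP- replicate 4 and did not in vehicle, and the difference was 0.47 (SE 0.18, adjusted p = 0.0788) in odor and 0.61 (SE 0.18, adjusted p = 0.0266) in vehicle. The vehicle call of Aurka was lost with the pool as a block (adjusted p = 0.0681), under median centring (0.23) and after quantile normalization (0.24). It was also lost without titled GFP+ replicate 2 (0.55) or 4 (0.57), or titled GFP- replicate 2 (0.59) or 4 (0.55). In odor Aurka was called without titled GFP+ replicate 4 (0.61) or titled GFP- replicate 4 (0.60), and with centring on mature neuron markers (0.77). Cdk1, the mitotic kinase, was called in both treatments (adjusted p = 1.36e-07 in odor and 1.91e-07 in vehicle) although all 16 readings were below background, at 4.76 ± 0.20 in odor titled GFP+ and 2.39 ± 0.15 in odor titled GFP-, and at 4.69 ± 0.54 in the vehicle libraries titled GFP+ and 2.38 ± 0.12 in those titled GFP-.

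The chromosomal passenger complex corrects faulty spindle attachments and acts again in cytokinesis, and all 3 of its genes were called higher in both treatments. Aurkb, its kinase, had log2 signals of 6.91, 7.55, 6.67 and 7.49 in odor libraries titled GFP+, against 5.07, 4.71, 5.05 and 4.79 in odor titled GFP-. It had 7.46, 7.88, 7.43 and 7.49 in vehicle titled GFP+, against 5.29, 4.85, 4.73 and 5.39 in vehicle titled GFP-. All 8 libraries titled GFP- were below background, so the rise was at least 3.26-fold in odor (adjusted p = 2.53e-07) and 4.17-fold in vehicle (adjusted p = 7.47e-08). Birc5, which is survivin, had 6.34, 5.88, 6.04 and 6.54 in odor libraries titled GFP+, against 5.12, 4.80, 5.48 and 5.57 in odor titled GFP-. It had 6.34, 6.37, 5.83 and 5.94 in vehicle titled GFP+, against 4.52, 4.86, 5.27 and 5.02 in vehicle titled GFP-. The sorts did not overlap, with 0.96 (SE 0.21, adjusted p = 0.00265) in odor and at least 1.53-fold in vehicle (adjusted p = 0.000358). Cdca8, which is borealin, had 5.80, 5.87, 5.99 and 5.71 in odor libraries titled GFP+, against 5.03, 4.67, 5.18 and 5.23 in odor titled GFP-. It had 6.22, 6.18, 5.38 and 5.85 in vehicle titled GFP+, against 5.47, 5.08, 4.79 and 5.30 in vehicle titled GFP-, with 1 library titled GFP+ inside the range of titled GFP-. Its calls (adjusted p = 0.00543 in odor and 0.0109 in vehicle) were lost in both treatments with values raised to the background, and in vehicle under median centring and quantile normalization.

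Ube2c, the ubiquitin-conjugating enzyme of the anaphase-promoting complex, had log2 signals of 9.37, 10.13, 8.43 and 8.88 in odor libraries titled GFP+, against 4.00, 3.51, 3.83 and 4.41 in odor titled GFP-. In vehicle they were 9.64, 10.14, 9.26 and 8.91 in titled GFP+, against 3.97, 3.48, 3.48 and 3.98 in titled GFP-. Every library titled GFP+ was above background and every library titled GFP- below it. The rise was at least 13.5-fold in odor (adjusted p = 1.85e-09) and 15.8-fold in vehicle (adjusted p = 7.03e-10). Bub1, a kinase of the spindle checkpoint, had 7.58, 7.62, 6.14 and 6.31 in odor libraries titled GFP+, against 3.27, 3.43, 4.28 and 4.18 in odor titled GFP-. It had 8.15, 7.99, 6.76 and 6.66 in vehicle titled GFP+, against 3.77, 3.92, 4.74 and 3.97 in vehicle titled GFP-. It was above background in all 8 libraries titled GFP+ and in 0 of 8 titled GFP-, higher by at least 2.76-fold in odor (adjusted p = 1.66e-05) and 3.68-fold in vehicle (adjusted p = 1.02e-05). With values raised to the background, the adjusted p of Bub1 was 0.00824 in odor and 0.0012 in vehicle. In each treatment the libraries titled GFP+ numbered 1 and 2 were more than 1 log2 unit above those numbered 3 and 4.

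Bub1b, which makes the checkpoint protein BubR1, had log2 signals of 7.07, 6.75, 5.53 and 6.37 in odor libraries titled GFP+, against 4.99, 3.99, 5.18 and 5.55 in odor titled GFP-. It had 7.29, 6.16, 6.29 and 6.11 in vehicle titled GFP+, against 6.19, 4.60, 5.42 and 5.73 in vehicle titled GFP-. The sorts overlapped in both treatments. Bub1b was higher by at least 1.97-fold in odor (adjusted p = 0.0118) and was not called in vehicle, at 0.98 (SE 0.40, adjusted p = 0.106). Its difference between the treatments was 0.52 (SE 0.56, adjusted p = 1.0), not called. Cdc20, the activator of the anaphase-promoting complex, and Ttk, the checkpoint kinase Mps1, were called in both treatments at signals below background in all but 1 reading, that of Ttk in odor titled GFP+ replicate 2. With values raised to the background neither was called. Ttk was also not called under median centring in either treatment (0.31 in odor and 0.42 in vehicle), nor in odor without titled GFP+ replicate 2 (0.51) or titled GFP- replicate 3 (0.58).

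Kinetochore genes were called higher in 4 of 4 in both treatments. Nuf2, of the complex that grips microtubule ends, had log2 signals of 8.10, 9.06, 6.63 and 7.66 in odor libraries titled GFP+, against 5.44, 5.90, 5.55 and 4.96 in odor titled GFP-. It had 8.06, 8.45, 7.76 and 8.10 in vehicle titled GFP+, against 6.28, 5.55, 5.44 and 4.98 in vehicle titled GFP-. The sorts did not overlap, with 2.40 (SE 0.39, adjusted p = 0.000162) in odor and 2.53 (SE 0.39, adjusted p = 0.000102) in vehicle. Ndc80, its partner, had 5.39, 6.16, 4.45 and 5.95 in odor libraries titled GFP+, against 3.97, 3.62, 3.11 and 3.71 in odor titled GFP-. It had 6.31, 5.57, 5.15 and 5.11 in vehicle titled GFP+, against 3.495, 3.83, 3.75 and 3.95 in vehicle titled GFP-. It was called (adjusted p = 0.000316 in odor and 0.000603 in vehicle) without overlap between the sorts, yet only 2 of 4 libraries titled GFP+ in each treatment exceeded background, and raised to the background it was not called. Cenpe, a kinesin motor that carries chromosomes to the spindle's middle, had 7.71, 8.38, 7.32 and 7.32 in odor libraries titled GFP+, against 6.56, 6.00, 6.24 and 5.97 in odor titled GFP-. It had 8.09, 7.92, 7.89 and 7.64 in vehicle titled GFP+, against 6.40, 5.33, 5.84 and 5.58 in vehicle titled GFP-. Here too the sorts did not overlap, at 1.49 (SE 0.25, adjusted p = 0.000216) in odor and 2.10 (SE 0.25, adjusted p = 5.67e-06) in vehicle. Cenpf, a large protein of the outer kinetochore, was called but above background in only 1 of 4 libraries titled GFP+ of each treatment and in 0 of 8 titled GFP-, and was not called when raised to it.

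Spindle and midzone genes were called higher in 5 of 6 in both treatments. Kif11, the motor that pushes spindle poles apart, had log2 signals of 9.83, 9.79, 9.0 and 9.26 in odor libraries titled GFP+, against 6.92, 6.94, 7.02 and 7.08 in odor titled GFP-. It had 9.27, 10.02, 8.82 and 9.28 in vehicle titled GFP+, against 6.97, 6.89, 7.32 and 6.95 in vehicle titled GFP-. All 16 were above background and the sorts did not overlap, with 2.48 (SE 0.22, adjusted p = 2.36e-07) in odor and 2.32 (SE 0.22, adjusted p = 5.7e-07) in vehicle. Kif23, a motor of the cytokinesis midzone, had 7.83, 8.62, 7.71 and 8.03 in odor libraries titled GFP+, against 6.09, 5.16, 5.71 and 5.83 in odor titled GFP-. It had 8.24, 8.48, 8.17 and 8.38 in vehicle titled GFP+, against 6.27, 6.28, 6.01 and 5.81 in vehicle titled GFP-. It differed by 2.35 (SE 0.21, adjusted p = 2.04e-07) in odor and 2.22 (SE 0.21, adjusted p = 4.19e-07) in vehicle, again without overlap. Prc1, which bundles midzone microtubules, had 7.88, 7.41, 7.24 and 7.60 in odor libraries titled GFP+, against 7.70, 7.18, 7.61 and 7.49 in odor titled GFP-. It had 7.77, 7.66, 8.43 and 7.76 in vehicle titled GFP+, against 7.23, 7.42, 8.06 and 7.81 in vehicle titled GFP-. In contrast to both motors, Prc1 overlapped between the sorts and was not called, at 0.04 (SE 0.21, adjusted p = 0.92) in odor and 0.28 (SE 0.21, adjusted p = 0.398) in vehicle. Median centring turned its sign, to -0.33 in odor and -0.09 in vehicle, as did quantile normalization in odor (-0.21), and leaving out odor titled GFP+ replicate 1 (-0.08) or titled GFP- replicate 2 (-0.07), none of them called.

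Nusap1, a microtubule-binding protein of the spindle, averaged 7.85 ± 0.58 in odor titled GFP+ and 5.35 ± 0.38 in odor titled GFP-, and 8.004 ± 0.25 in the vehicle libraries titled GFP+ and 5.02 ± 0.38 in those titled GFP-. It differed by 2.50 (SE 0.26, adjusted p = 1.64e-06) in odor and 2.99 (SE 0.26, adjusted p = 2.05e-07) in vehicle. Only 1 of 4 libraries titled GFP- in each treatment was above background for Nusap1, and values raised to it differed by 2.33 in odor and 2.48 in vehicle. Kif20a, another cytokinesis motor, was above background in all 8 libraries titled GFP+ and in 0 of 8 titled GFP-. Its rise was at least 1.44-fold in odor and 1.65-fold in vehicle (adjusted p = 1.24e-06 in odor and 1.8e-08 in vehicle), and raised to the background it was not called in odor (adjusted p = 0.0724). Tpx2, which activates Aurka at the spindle, averaged 6.08 ± 0.97 in odor titled GFP+ and 4.07 ± 0.24 in odor titled GFP-, where 2 of 4 libraries titled GFP+ were above background and the raised values were not called (adjusted p = 0.174). The vehicle means of Tpx2 were 6.64 ± 0.38 (titled GFP+) and 4.15 ± 0.20 (titled GFP-), higher by at least 2.19-fold (adjusted p = 3.13e-05).

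Mki67, whose protein coats mitotic chromosomes and serves as the common marker of cycling cells, had log2 signals of 11.11, 11.23, 10.18 and 10.27 in odor libraries titled GFP+, against 4.73, 5.28, 5.97 and 6.22 in odor titled GFP-. In vehicle they were 10.66, 11.31, 10.00 and 9.86 in titled GFP+, against 4.34, 4.81, 5.60 and 5.30 in titled GFP-. The sorts stood far apart, at 5.15 (SE 0.38, adjusted p = 2.15e-08) in odor and 5.44 (SE 0.38, adjusted p = 1.14e-08) in vehicle, or 35.4-fold in odor and 43.5-fold in vehicle as deposited. Only 3 of 8 readings in titled GFP- were above background. With values raised to the background, Mki67 was 30.3-fold higher in odor and 30.4-fold higher in vehicle. In both treatments the libraries titled GFP+ numbered 1 and 2 were again the higher pair. Top2a, which untangles sister chromatids, had 7.61, 8.06, 7.23 and 7.04 in odor libraries titled GFP+, against 5.56, 5.70, 6.29 and 5.49 in odor titled GFP-. It had 7.52, 7.26, 7.25 and 6.92 in vehicle titled GFP+, against 5.44, 5.78, 5.61 and 5.72 in vehicle titled GFP-. The sorts did not overlap here either, at 1.73 (SE 0.22, adjusted p = 1.08e-05) in odor and 1.61 (SE 0.22, adjusted p = 2.57e-05) in vehicle.

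**Figure D2:**
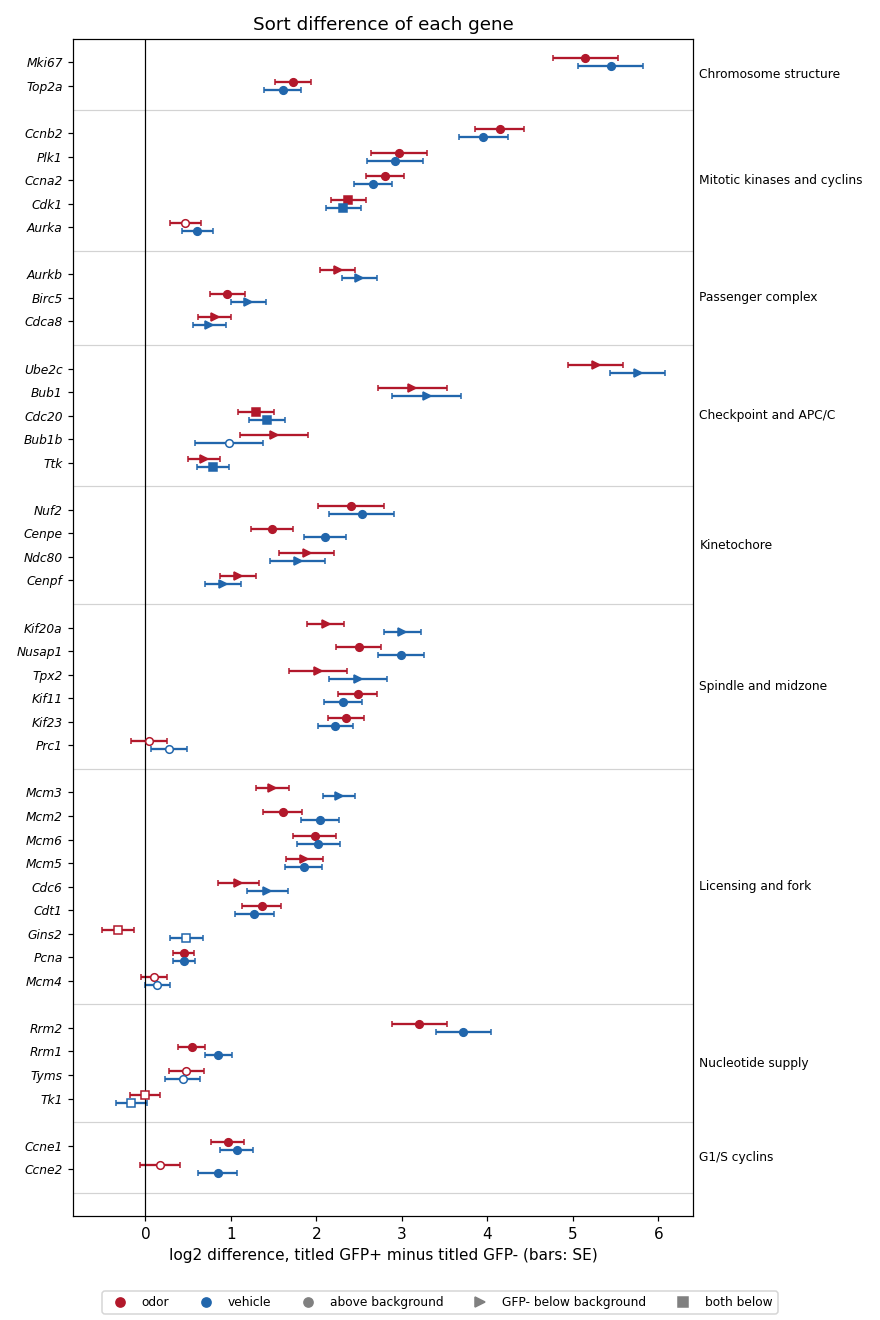
Log2 difference, titled GFP+ minus titled GFP-, of each gene in odor (red) and vehicle (blue) with its SE, as deposited and grouped by role. Filled symbols passed the test and open ones did not; triangles mark genes below background in all 4 libraries titled GFP- and squares those below it in both sorts. Mki67 lies at 5.15 in odor and 5.44 in vehicle, Mcm4 and Prc1 lie near 0, and the place of a triangle or square is not a measured size.

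The mitosis genes among the members differed more between the sorts than the replication genes among them did, as a median over each list. In odor 23 of 25 mitosis genes were called higher, with a median difference of 2.11, beside 10 of 15 replication genes with a median of 0.96. In vehicle the counts were 23 of 25 with a median of 2.31, and 11 of 15 with a median of 1.07. Within replication, the Mcm, Rrm and Pcna genes were called in 7 of 8 in both treatments, with medians of 1.55 in odor and 1.94 in vehicle. The 7 other S phase genes were called in 3 in odor (median 0.48) and in 4 in vehicle (median 0.84). Genes called in both treatments numbered 22 of mitosis and 10 of replication. Once values were raised to the background, 15 of 25 mitosis genes and 8 of 15 replication genes were called in odor, and 17 of 25 and 10 of 15 in vehicle. Among the Mcm, Rrm and Pcna genes 6 of 8 were then called in odor and 7 of 8 in vehicle.

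By pool, the mitosis median exceeded the replication median in all 8. The gap was 0.84, 1.89, 0.49 and 1.38 in the odor pools and 0.93, 1.64, 0.96 and 1.19 in the vehicle pools, or 1.15 ± 0.62 in odor and 1.18 ± 0.33 in vehicle (SD, n = 4 each). Against the Mcm, Rrm and Pcna genes alone the order did not hold everywhere: odor pool 3 had 1.34 for mitosis and 1.35 for those 8 genes. Between the fitted medians, mitosis exceeded all 15 replication genes by 1.15 in odor and 1.24 in vehicle as deposited, and by 0.98 in odor and 0.71 in vehicle with values raised to the background. It exceeded the Mcm, Rrm and Pcna genes by 0.56 in odor and 0.38 in vehicle as deposited, and by 0.51 in odor and 0.33 in vehicle with values raised. In libraries titled GFP-, 12 of the 25 mitosis genes were below background in all 4 libraries of each treatment, against 5 of 15 replication genes in odor and 4 of 15 in vehicle. The members were chosen with results known, so this is a description with no test.

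**Figure D3:**
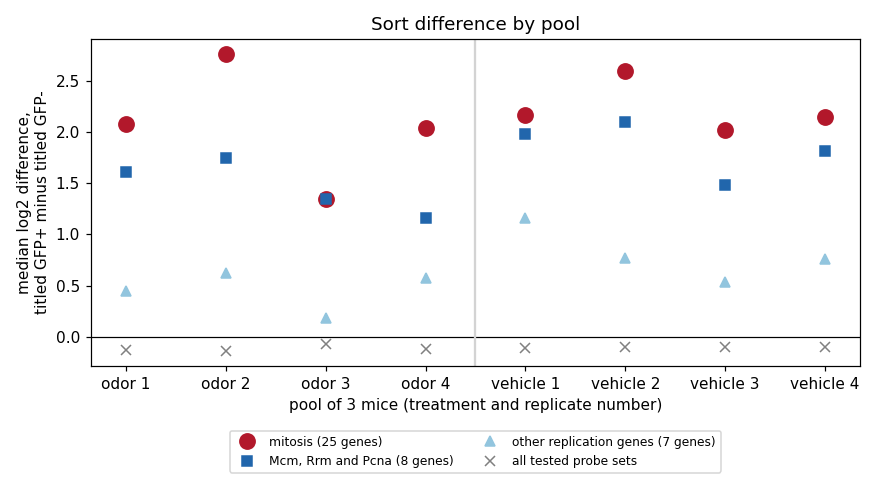
Median log2 difference between the titled sorts in each pool, for the mitosis genes, the Mcm, Rrm and Pcna genes, the 7 other replication genes and all tested probe sets. Mitosis medians run from 1.34 to 2.76 in odor pools and 2.02 to 2.59 in vehicle pools, while all probe sets stay between -0.14 and -0.075.

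Promoter words and sort differences did not sort the genes cleanly. The 6 genes with an E2F-type word had a median sort difference of 1.67 in odor and 1.94 in vehicle, the 27 without one 1.501 in odor and 1.61 in vehicle. The 17 with both a CHR and a CCAAT box had medians of 1.73 in odor and 2.04 in vehicle, the 16 without both 1.42 in odor and 1.60 in vehicle. Among the printed promoters, Ube2c was higher by at least 13.5-fold in odor, while Cdca8 was not called with values raised to the background.

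Other mitosis genes went the same way as the members, and most other replication genes were not called. Of 49 further genes of mitosis, 38 were called higher in odor (median 0.92) and 37 in vehicle (median 0.90), with 0 lower in either. These medians lay below those of the replication members, 0.96 in odor and 1.07 in vehicle, so the order of mitosis above replication among the members did not extend to them. Raised to the background, 26 were called in odor (median 0.57) and 24 in vehicle (median 0.52). The replication members then had medians of 0.48 in odor and 0.83 in vehicle. Those named here by size include Pbk, a mitotic kinase, higher by at least 3.01-fold in odor and 3.38-fold in vehicle. Cdca3, a trigger of mitotic entry, differed by 2.61 (SE 0.21, adjusted p = 6.73e-08) in odor and 2.76 (SE 0.21, adjusted p = 3.51e-08) in vehicle, and Ckap2, of spindle microtubules, by 2.24 (SE 0.25, adjusted p = 2.45e-06) in odor and 2.58 (SE 0.25, adjusted p = 5.08e-07) in vehicle. Of 36 further genes of the replication machinery, such as polymerase, clamp loader and origin subunits, 5 were called higher and 0 lower in odor (median 0.01), and 5 higher and 1 lower in vehicle (median 0.21). The 5 are 13.9% of the 36, near the 11.0% of all probe sets called higher in odor and 10.2% in vehicle, and 3 were called in each treatment with values raised to the background. Dbf4, which activates the origin kinase Cdc7, differed by 1.39 (SE 0.23, adjusted p = 0.000183) in odor and 1.43 (SE 0.23, adjusted p = 0.000149) in vehicle. Uhrf1, which maintains DNA methylation behind the fork, differed by 0.96 (SE 0.15, adjusted p = 0.000117) in odor and 1.28 (SE 0.15, adjusted p = 5.45e-06) in vehicle, and Timeless, which protects the fork, was higher by at least 1.48-fold in odor and 1.55-fold in vehicle but was not called with values raised to the background (adjusted p = 0.0831 in odor and 0.0579 in vehicle). The remaining calls, named after their values were seen, were Gins1 and Pole2 higher in odor, and Gins1 and Pola2 higher and Dut lower (-0.44) in vehicle. Gins1 was below background in both sorts.

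Among the E2F, RB, MYB and MuvB factors that time these genes, 7 of 19 were called higher in odor and 5 of 19 in vehicle, with 0 lower. These are 36.8% in odor and 26.3% in vehicle, beside 11.0% and 10.2% of all probe sets called higher. Of all probe sets, 9.86% were called lower in odor and 7.16% in vehicle. E2f8, an E2F that represses, was higher by at least 29.5-fold in odor and 30.2-fold in vehicle (adjusted p = 1.15e-12 in odor and 2.34e-12 in vehicle). Its log2 signals were 10.36, 10.39, 10.14 and 10.44 in odor libraries titled GFP+, against 3.91, 4.28, 4.60 and 4.07 in odor titled GFP-. In vehicle E2f8 had 10.24, 10.53, 10.50 and 10.43 in titled GFP+, against 4.07, 4.94, 4.76 and 4.51 in titled GFP-. E2f2, an E2F that activates, differed by 4.84 (SE 0.32, adjusted p = 4.76e-09) in odor and 5.07 (SE 0.32, adjusted p = 3.15e-09) in vehicle. Mybl2, the MYB factor of late cell cycle genes, was higher by at least 1.35-fold in odor, where it was not called with values raised to the background (adjusted p = 0.0644), and was called in vehicle with 3 of 4 libraries titled GFP+ above background.

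Of 8 cyclins, kinases and growth regulators of G1, 5 were called higher in odor and 6 in vehicle. Myc, a growth-driving transcription factor, was higher by at least 12.1-fold in odor and 11.2-fold in vehicle, and Cdk2, the partner of cyclins E and A, by at least 10.0-fold and 8.81-fold. Ccnd3, a D-type cyclin, differed by 2.33 (SE 0.31, adjusted p = 2.18e-05) in odor and 2.14 (SE 0.31, adjusted p = 5.76e-05) in vehicle. Of 7 CDK inhibitors, which hold the cycle back, 2 were called higher in each treatment, Cdkn1b by at least 14.3-fold in odor and 13.9-fold in vehicle and Cdkn2c by at least 1.46-fold in odor. In vehicle Cdkn2c was above background in 3 of 4 libraries titled GFP+. Raised to the background, Cdkn2c was not called in either treatment (adjusted p = 0.0694 in odor and 0.0594 in vehicle), and Cdkn1b was. The G1 genes called were then 4 of 8 in each treatment, beside 8.54% of all probe sets called higher in odor and 7.77% in vehicle.

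**Figure D4:**
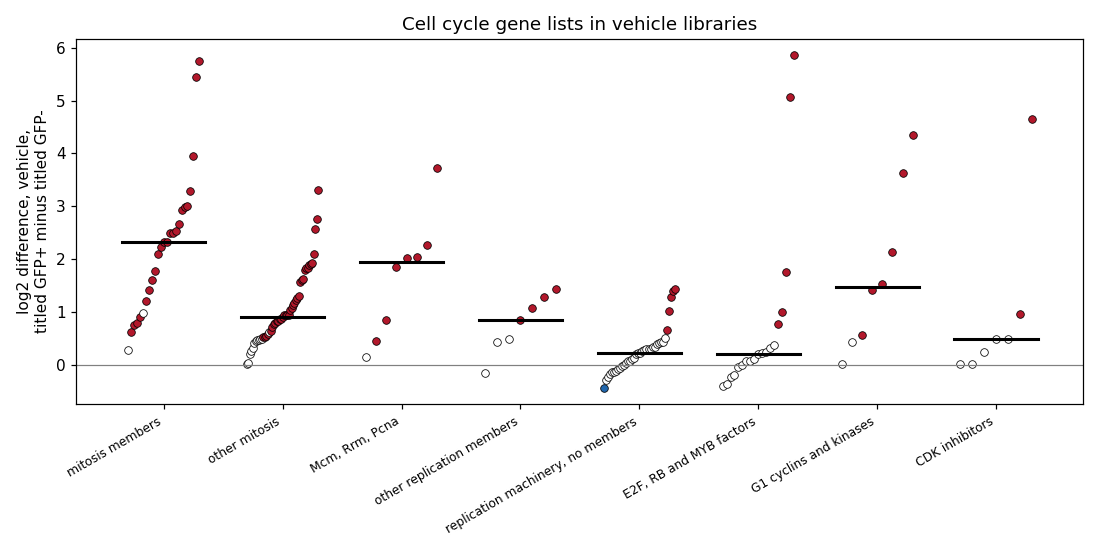
Log2 difference of each gene in vehicle libraries, titled GFP+ minus titled GFP- as deposited, for 8 cell cycle lists. Red points were called higher, the blue point lower, white points were not called, and bars are list medians. Medians are 2.31 for the mitosis members and 0.90 for other mitosis genes, but 0.21 for replication machinery that is not among the members.

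Markers of several cell types that can divide, or that arise from dividing cells, moved with the titled GFP+ libraries too, and their part in the results was not tested. The marker counts here and below stand beside 11.0% of all probe sets called higher in odor and 10.2% in vehicle. The shares called lower were 9.86% in odor and 7.16% in vehicle. With values raised to the background, 8.54% were called higher in odor and 7.77% in vehicle. Granulocyte precursor markers were called higher in 5 of 5 in both treatments. Mpo averaged 13.49 ± 0.62 in odor titled GFP+ and 6.52 ± 0.50 in odor titled GFP-, and 13.45 ± 0.30 in the vehicle libraries titled GFP+ and 6.51 ± 0.44 in those titled GFP-. Elane, another granule enzyme, differed by 6.48 (SE 0.33, adjusted p = 2.22e-10) in odor and 6.55 (SE 0.33, adjusted p = 1.92e-10) in vehicle, and Ctsg was higher by at least 4.7-fold and 3.6-fold. The log2 summed signal of the 5 was 13.21 to 14.68 in odor titled GFP+ and 7.77 to 8.12 in odor titled GFP-, and 13.90 to 14.46 in the vehicle libraries titled GFP+ and 7.63 to 8.28 in those titled GFP-. Mature neutrophil markers were higher in 9 of 9 in both, with sums of 18.63 to 19.81 in odor titled GFP+ and 9.26 to 11.34 in odor titled GFP-, and 18.73 to 19.19 in the vehicle libraries titled GFP+ and 9.19 to 10.63 in those titled GFP-.

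Erythroid markers were called higher in 4 of 7 in odor and 5 of 7 in vehicle, with sums of 11.05 to 12.69 in odor titled GFP+ and 9.39 to 9.55 in odor titled GFP-, and 12.06 to 13.00 in the vehicle libraries titled GFP+ and 9.19 to 9.68 in those titled GFP-. Rhag of the red cell membrane was higher by at least 7.49-fold in odor and 9.27-fold in vehicle. B precursor markers were called in 1 of 5 in odor and 0 of 5 in vehicle, with 3 of 5 in each treatment below background in every library titled GFP+. Macrophage markers were higher in 5 of 7 in odor and 6 of 7 in vehicle, B and plasma cell markers in 3 of 5 in odor and 4 of 5 in vehicle, and T and NK cell markers in 5 of 6 in both. After raising values to the background, B and plasma cell markers were called in 3 in odor and 2 in vehicle, T and NK cell markers in 2 in odor and 1 in vehicle, erythroid markers in 3 in each, and B precursor markers in 0.

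Of the epithelium's own progenitors, 3 of 4 measured globose basal markers were called higher in both treatments. Kit, a receptor that leukocyte precursors also carry, had log2 signals of 9.61, 8.87, 8.06 and 8.59 in odor libraries titled GFP+, against 5.01, 4.48, 4.66 and 5.04 in odor titled GFP-. It had 8.20, 8.80, 8.36 and 8.42 in vehicle titled GFP+, against 5.36, 5.31, 5.34 and 5.08 in vehicle titled GFP-. It was below background in all 8 libraries titled GFP-, higher by at least 10.1-fold in odor and 7.66-fold in vehicle. Sox2, which sustentacular cells also express, differed by 1.67 (SE 0.26, adjusted p = 0.000125) in odor and 1.60 (SE 0.26, adjusted p = 0.000214) in vehicle, while Neurog1 stayed below background in all 16 libraries and Lgr5 was not called. The sums of the 4 were 8.72 to 10.08 in odor titled GFP+ and 6.78 to 7.09 in odor titled GFP-, and 8.88 to 9.31 in the vehicle libraries titled GFP+ and 6.74 to 6.99 in those titled GFP-. In libraries titled GFP+ most of each sum was Kit. Horizontal basal markers were called in 1 of 5 in odor and 0 of 5 in vehicle, and in each treatment 4 of 5 were below background in every library titled GFP+. Immature neuron markers were higher in 6 of 8 in both treatments, sustentacular markers in 7 of 7, endothelial markers in 2 of 5 in odor and 0 of 5 in vehicle, and fibroblast markers in 1 of 4. Of the 5 endothelial markers 4 were below background in both sorts in odor. After raising values to the background, endothelial and horizontal basal markers were called in 0, fibroblast markers in 1 in odor and 0 in vehicle, and globose basal markers in 2 of 4 in each. Of 12 mature neuron markers 0 were called higher, and Pde1c and Ano2 were called lower in both treatments.

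No member passed the threshold between odor and vehicle. Among libraries titled GFP+, 0 of 40 were called between odor and vehicle by limma, where 0.00901% of all probe sets were called. At an unadjusted p under 0.05, 2 of the 40 were lower and 0 higher, in a comparison where 4.83% of all probe sets passed that mark. These 2 were Mcm3, with 5.59, 5.98, 5.46 and 5.78 in odor titled GFP+, against 6.06, 6.82, 6.04 and 6.45 in vehicle titled GFP+, and Gins2, which was below background throughout. Mcm3 did not overlap between the treatments, as was so for 1.36% of all probe sets in that direction, and its difference was -0.64 (SE 0.19, unadjusted p = 0.00397, adjusted p = 0.968). Of the 40 genes 27 were lower with odor and 13 higher, with a median of -0.14, beside a median over all probe sets of -0.01.

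Among libraries titled GFP-, 0 of 40 were called, against 0.0180% of all probe sets, and 1 gene passed an unadjusted p of 0.05, as did 3.30% of all probe sets. It was Kif20a, at 3.68, 4.25, 3.80 and 3.76 in odor titled GFP-, against 3.42, 3.27, 3.32 and 2.87 in vehicle titled GFP-, all 8 of them below background. The sort difference itself was not shown to differ between treatments: 0 of 40 genes were called in the interaction, against 0.00450% of all probe sets. At an unadjusted p under 0.05, 3 had a lower sort difference in odor than in vehicle, Kif20a, Gins2 and Mcm3, where 2.94% of all probe sets passed. Median interactions were -0.13 for mitosis genes and -0.11 for replication genes. Both comparisons share libraries with the sort comparisons above.

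The genes that differed most between the sorts had these odor differences. Mki67 differed between odor and vehicle by 0.24 (SE 0.38) in titled GFP+ and by 0.54 (SE 0.38) in titled GFP-. Ube2c differed by -0.28 (SE 0.32) in titled GFP+, and was below background in both groups titled GFP-. Ccnb2 differed by 0.44 (SE 0.28) in titled GFP+ and 0.25 (SE 0.28) in titled GFP-. For Rrm2 the values were -0.24 (SE 0.32) in titled GFP+ and 0.28 (SE 0.32) in titled GFP-. None of these passed, and with 4 pools a group a miss does not show that odor left them alike.

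**Figure D5:**
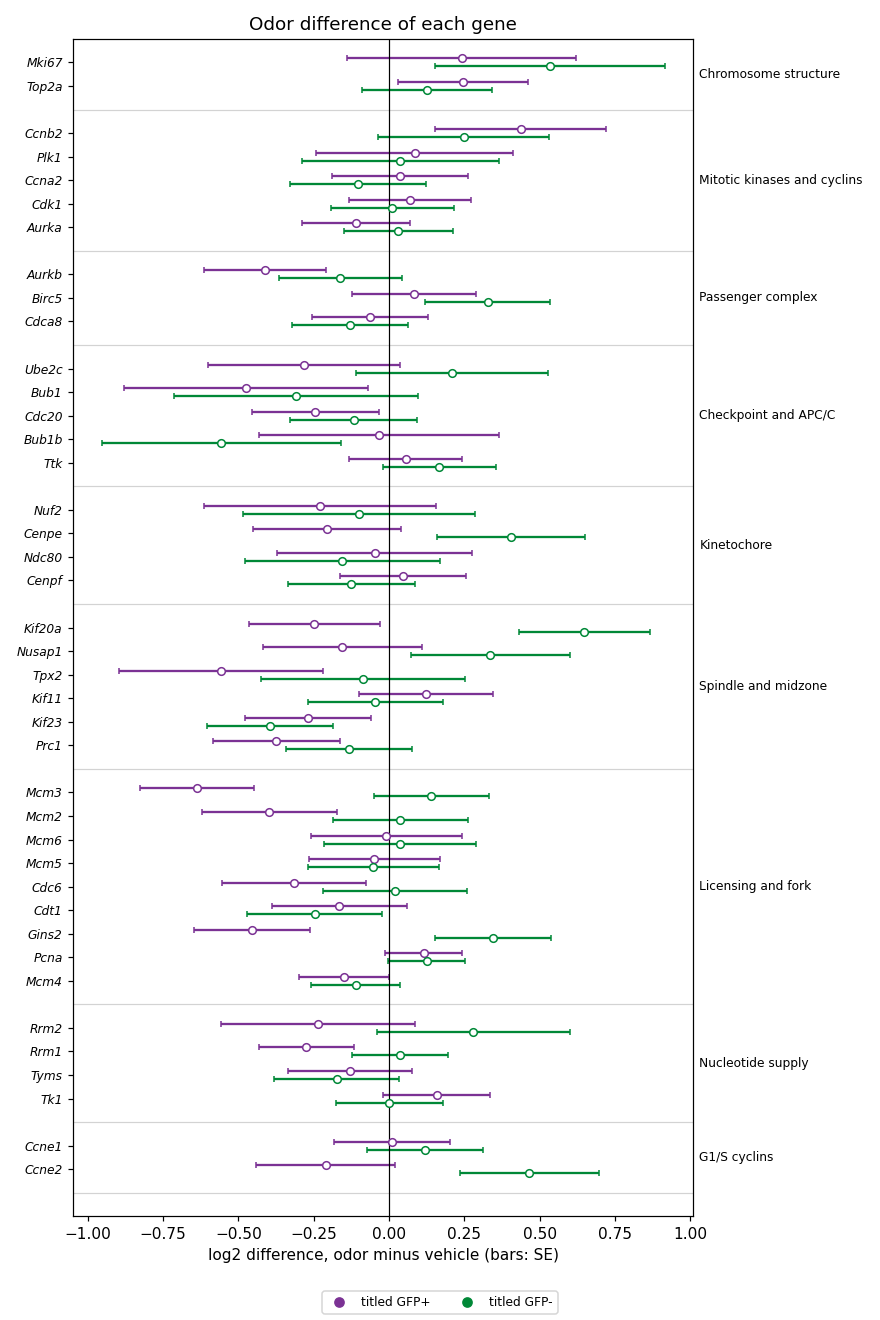
Log2 difference, odor minus vehicle, of each gene in libraries titled GFP+ (purple) and titled GFP- (green) with its SE, as deposited. All symbols are open because 0 of 40 genes were called in either sort. The values run from -0.64 for Mcm3 in titled GFP+ to 0.65 for Kif20a in titled GFP-, whose 8 readings were below background.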

How the data were processed

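RNA from 16 sorted samples of mouse olfactory mucosa was hybridised to Clariom S arrays. The log2 signals were deposited by the authors in 1 table and, per the submitters' processing notes, made with Affymetrix Expression Console. The sources used here do not state the background correction or normalization. Values ran from 1.68 to 19.33, and no 2 arrays were identical. Of 28846 probe sets, 6640 controls were left out, 5222 of them negative controls that set the background of each array. The other 22206 were tested: 19572 carry 1 symbol in the platform annotation and 2634 none.

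The table was used as deposited. A model of the 4 group means was fitted with limma 3.58.1 (R 4.3.3, lmFit and eBayes), with Benjamini-Hochberg adjustment over all 22206 probe sets and a threshold of 0.05, and tested on simulated data. Groups follow the sample titles. Each of the 8 pools of 3 mice gave both sorts, so the replicate number pairs the sorts within a treatment, and deviations of such pairs correlated at 0.16 to 0.40. Odor and vehicle libraries of the same number correlated at 0.17 to 0.28 in titled GFP+ and 0.07 to 0.41 in titled GFP-. The fit with the number as a block is given where it changes a call. Between odor and vehicle it called 0 of 40 genes in either sort, as did the fit without it. Quoted SEs and p-values are of the limma fit that ignores the pairing, unless the block is named. With the block, adjusted p was larger for some genes, such as Mki67 (2.24e-05 in odor and 1.6e-05 in vehicle). It was smaller for others, such as Cdt1 (7.29e-05 in odor and 0.00012 in vehicle). Pools are replicates, and it is not given whether each was prepared separately, so p-values measure the spread between these samples.

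All listed genes could be named. Values in every library are given for up to 3 genes per role with the highest mean signal, for Mki67 and Top2a, and for genes not called between sorts. From other lists up to 3 called genes with the largest difference in vehicle are named. The members and lists were chosen with earlier results of these data known. Other scalings (median centring, quantile, mature neuron markers), a variance trend, a filter on dim probe sets and leaving out each library were tried. For the gap between mitosis and replication genes, each pool was left out instead of each library. Raising values to the background was chosen after seeing the data. Promoters are from RefSeq on GRCm38.p6.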

Additional observations from a re-analysis of the deposited data

Results flagged for a closer look

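In 17 of 160 groups of 4 libraries, 1 library of a gene stood apart from the other 3 by Dixon's ratio past its critical value, where chance gives about 1 in 20. Values are log2 signals, with the nearest other library of the group after each.

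Among replication genes, Mcm4 read 8.30 in odor titled GFP+ replicate 3, below the next at 8.89. Mcm3 read 3.86 in odor titled GFP- replicate 3, below 4.29 and under background in any case. Mcm6 read 6.72 in odor titled GFP- replicate 1 (next 6.40), and Pcna 14.18 in odor titled GFP- replicate 4 (next 13.95). Mcm2 read 7.77 in vehicle titled GFP+ replicate 2 (next 7.09), and Ccne1 read 6.99 in vehicle titled GFP+ replicate 1 (next 6.61). Vehicle titled GFP+ replicate 3 stood high for Tyms at 7.95 (next 7.65) and for Cdc6 at 6.01 (next 5.55). In vehicle titled GFP-, Rrm2 read 6.02 in replicate 4 (next 5.73) and Tk1 read 4.85 in replicate 1 (next 4.62), the second under background.

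Among mitosis genes, Bub1b read 7.29 in vehicle titled GFP+ replicate 1 (next 6.29), Aurkb 7.88 in replicate 2 (next 7.49) and Prc1 8.43 in replicate 3 (next 7.77). Cenpf read 5.84 in odor titled GFP+ replicate 1, the only odor library where it exceeded background (next 4.87). In odor titled GFP-, Aurka read 6.52 in replicate 4 (next 6.01), and that library made the sorts overlap. Nusap1 read 4.78 in odor titled GFP- replicate 2, below the next at 5.53, and Cdc20 read 3.65 there (next 3.15), under background.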

How the results depend on the processing

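Under 23 other settings, 1756 of 1828 values of single genes in the 2 sort comparisons kept their direction and their side of the threshold. Of these settings, 16 left out 1 library, which cannot change a sort difference of the other treatment. Such values kept their direction by construction and could change side only through the shared estimate of spread, so the total overstates the agreement. With the direction kept, 38 lost the call and 9 gained one, and 25 changed direction. Among these 25 are Cdc20, Cdk1, Cenpf and Ttk with values raised to the background, which also lost their calls in both treatments. The genes called numbered 33 in odor and 34 in vehicle as deposited. They numbered 31 in odor and 30 in vehicle under median centring, 33 in odor and 31 in vehicle after quantile normalization, and 35 in each with centring on mature neuron markers. They numbered 33 in odor and 34 in vehicle with a variance trend, and 29 in odor and 30 in vehicle with dim probe sets left out. With values raised to the background they numbered 23 in odor and 27 in vehicle. With the replicate block, which pairs the sorts by pool, they numbered 34 in odor and 33 in vehicle: Tyms was gained in odor and Aurka lost in vehicle, and it changed no other call of a listed gene. Leaving out 1 library, of either treatment, gave 30 to 34 in odor and 32 to 34 in vehicle. The odor comparisons and the interaction called 0 of 40 genes under every setting run. Relative to the values as deposited, median centring moved the median sort difference of all probe sets by -0.37 in each treatment, and centring on mature neuron markers by 0.31 in odor and 0.21 in vehicle.

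The gap between the mitosis and replication medians was 0.98 in odor and 0.71 in vehicle with values raised to the background, against 1.15 and 1.24 as deposited. Leaving out 1 pool, with both of its libraries, gave 1.05 to 1.31 in odor and 1.14 to 1.36 in vehicle. With values raised to the background, sort differences turned to -0.09 in odor and -0.26 in vehicle for Cdc20 and Cdk1, to -0.02 in odor and -0.26 in vehicle for Ttk, to -0.02 in odor and -0.25 in vehicle for Cenpf, and to -0.26 in vehicle for Gins2. By construction these genes then mostly carry each array's background. Median centring turned Mcm4 (-0.26 in odor and -0.23 in vehicle), Prc1 (-0.33 in odor and -0.09 in vehicle) and Ccne2 in odor (-0.20). Quantile normalization turned Ccne2 (-0.15) and Prc1 (-0.21) in odor. Centring on mature neuron markers turned Tk1 (0.30 in odor and 0.04 in vehicle). Leaving out 1 library at a time, the odor difference ran from -0.02 to 0.37 for Ccne2, from -0.08 to 0.13 for Prc1 and from -0.12 to 0.15 for Tk1. Centring, on medians or on mature neuron markers, moves the sort difference of every gene by the same amount, given above. For the other turns, apart from raising to the background, the cause was not tested. Signal over background limits Cdk1, Cdc20, Tk1 and Gins2, which had none in 16 libraries.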

Other observations

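Pools differed in how far the sorts stood apart. Within a pool, titled GFP+ exceeded titled GFP- for 38, 39, 35 and 38 of the 40 genes in the odor pools and for 39, 40, 39 and 37 in the vehicle pools. The median difference over the 40 genes was 1.79, 2.12, 1.15 and 1.41 in the odor pools and 1.96, 1.83, 1.51 and 1.55 in the vehicle pools. Odor pool 3 had the smallest median of the 8, and its library titled GFP+ also had the lowest summed signal of granulocyte precursor markers (13.21) and of globose basal markers (8.72) among the 8 libraries titled GFP+. The globose basal sum is mostly Kit, which leukocyte precursors also carry, so it is no separate reading of epithelial progenitors. That library was also lowest for mature neutrophil (18.63) and B and plasma cell markers (9.27), and highest for mature neuron markers (20.92). It was not lowest for macrophage, T and NK cell, erythroid or sustentacular markers. Whether these move together for a reason was not tested.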
